A study of Mus musculus with 21 samples.

Results

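Mouse embryonic stem cells that lack Ago2 were compared with the untransfected parental line by RNA-seq, in 6 of the 21 libraries of the study. The members of the comparison were chosen by their labels alone: 3 libraries of the parental cells (W) and 3 of the Ago2 knockout (Ago2KO), both from Experiment 1 of 2 experiments. The parental line is of 129S6/SvEvTac background, carries the reporter GFP_5xT71BS, in which GFP is fused to 5 binding sites for the RNA-binding protein TRIM71, and was stably transfected with FLAG-tagged Cas9 and a blasticidin resistance gene. Ago2KO is that line with the genotype Ago2-/-, so reporter, Cas9 and resistance gene are shared by both groups. Cells grew on gelatin in 15% serum with LIF, a medium that holds stem cells in self-renewal. Whether the knockout is 1 clone or a pool is not given in the sources used here. A second edited line of Experiment 1, Trim71KO (Trim71-/-, 3 libraries), was set beside Ago2KO for named genes. Experiment 2 supplied 9 other libraries: parental cells with a plasmid for T6B_WT, a peptide of TNRC6B that binds Argonaute, parental cells with its mutant T6B_MUT, and libraries labelled Ago2KO_empty, which by their label are the Ago2 knockout with an empty plasmid, although Ago2 counts did not separate them from T6B_MUT.

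AGO2 is an Argonaute protein. It holds a microRNA, a short RNA that guides it, and pairs the seed of that RNA, bases 2 to 8, with sites in the 3′ untranslated region (3′ UTR) of mRNAs. Proteins of the TNRC6 family (GW182) then bind Argonaute and recruit the enzymes that shorten the poly(A) tail and destroy the mRNA. Embryonic stem cells rely on microRNAs of the miR-290 and miR-302 clusters and of the miR-17 family, whose known targets include brakes on the cell cycle such as Cdkn1a, Rbl2 and Lats2. AGO1, AGO3 and AGO4 also bind microRNAs, so losing AGO2 takes away 1 of 4 carriers.

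The mature sequences of these microRNAs are shown because the seed decides which mRNAs they can pair with. They were taken from RefSeq on GRCm38.p6, the seed is in capitals, and each is written 5′ to 3′. The members of the miR-290 and miR-302 clusters printed first share the seed AAGUGCU, while miR-290a-3p differs from it in the last seed base. The miR-17 family carries AAAGUGC, which is the same run shifted by 1 base, and let-7, a family that differentiated cells use, carries GAGGUAG. Entries for mmu-miR-292a-3p and mmu-miR-302a-3p were not matched.
mmu-miR-291a-3p: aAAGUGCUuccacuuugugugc
mmu-miR-294-3p: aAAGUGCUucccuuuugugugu
mmu-miR-295-3p: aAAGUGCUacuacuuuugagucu
mmu-miR-302b-3p: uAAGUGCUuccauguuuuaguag
mmu-miR-302d-3p: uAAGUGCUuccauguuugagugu
mmu-miR-290a-3p: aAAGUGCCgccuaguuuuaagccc
mmu-miR-17-5p: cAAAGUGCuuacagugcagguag
mmu-miR-20a-5p: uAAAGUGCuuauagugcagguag
mmu-miR-93-5p: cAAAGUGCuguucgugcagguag
mmu-let-7a-5p: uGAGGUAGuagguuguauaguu

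Ago2 mRNA was examined first, as the check of the labels. Ago2 (ENSMUSG00000036698, chromosome 15, 73095844 to 73184935, minus strand, GRCm38) had 153, 134 and 139.5 CPM (the count of a gene scaled to the total of its library) in W. It had 43.6, 42.5 and 39.8 CPM in Ago2KO. The groups did not overlap, and Ago2KO lay below W by a log2 fold change of −1.76 with SE 0.07 (edgeR's quasi-likelihood test with Benjamini-Hochberg adjustment gave an adjusted p of 1.30e-09, and every adjusted p below comes from it). Ago2 reads were thus reduced and not absent, and reads across the edit were not looked at. Chrac1 is annotated over part of Ago2 on the other strand. In Experiment 2, Ago2 stood at 87.4, 167 and 45.6 CPM in the libraries labelled Ago2KO_empty and at 113, 143 and 112 CPM in T6B_MUT, and these were not separated (log2 fold change −0.30, adjusted p 0.601, edgeR). Every direction taken below from the libraries labelled Ago2KO_empty carries that limit, and it carries a second: by their labels they differ from T6B_MUT in genotype and plasmid together.

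Depth was 47.2 M to 49.1 M counts per library in W and 29.6 M (replicate 2) to 50.8 M (replicate 3) in Ago2KO, which gave a median standard error of 0.11 for a log2 fold change. Replicates differed by more than counting noise in all 6 within-group pairs (chi-square per degree of freedom 3.71 to 16.6). Markers of embryonic stem cells summed to 3673 to 3950 CPM in W and 3860 to 3990 CPM in Ago2KO over 8 genes. Of 8 fibroblast markers, 4 were in the table and summed to 11.9 to 13.9 CPM in W and 12.4 to 14.6 CPM in Ago2KO, and Col3a1, Postn, Lum and Dcn were not in it.

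Of 21210 genes tested, 3811 (18.0%) passed an adjusted p of 0.05 (edgeR quasi-likelihood), and such genes are the ones said below to rise or fall. There were 2161 higher (10.2%) and 1650 lower (7.78%) in Ago2KO, and the median of all genes was −0.00. The count of lower genes was 1014 without W replicate 2 and 1016 without W replicate 3. Among protein-coding genes, which make up most of the lists below, 13.7% were higher and 9.73% lower, and counts are to be read against these shares. Most changes were small: 192 genes (0.905%) rose and 148 (0.698%) fell by a log2 fold change of at least 1. CPM of the 3 W and 3 Ago2KO libraries did not overlap for 34.2% of tested genes. Of 160 genes looked at in detail, 92 overlap no other annotated gene, and the counts of the rest are uncertain, since whether reads were counted by strand is not given in the sources used here.

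Among the other proteins of the silencing complex, Ago1 and Tnrc6a to Tnrc6c were called higher in Ago2KO, by log2 fold changes of 0.17 to 0.54, and Ago3 and Ago4 were not called. Ago1, which encodes a second Argonaute, had 54.6, 56.0 and 53.6 CPM in W and 75.1, 71.8 and 67.9 CPM in Ago2KO (log2 fold change 0.39, SE 0.05, adjusted p 0.000112, edgeR). Tnrc6a, the GW182 protein that links Argonaute to deadenylation, rose from 71.7, 76.5 and 74.0 CPM to 106, 111 and 106 CPM (0.54, SE 0.05, adjusted p 5.86e-06, edgeR). All Ago2KO libraries lay above all W libraries for both genes. Tnrc6b rose by 0.41 and Tnrc6c by 0.17 on the log2 scale. The call on Tnrc6c was lost in 6 of the alternatives, with adjusted p from 0.0585 to 0.594 (edgeR). Ago3 (15.8 ± 2.24 CPM in W, 17.5 ± 1.66 in Ago2KO, SD, n = 3), Ago4 (0.194 ± 0.120 and 0.287 ± 0.126) and Dicer1, which cuts microRNAs from their precursors (161 ± 5.89 and 177 ± 6.13), did not pass the test, with adjusted p of 0.422, 0.506 and 0.104 (edgeR). Of 29 genes of microRNA processing and silencing, 6 were higher and 7 lower, and 3 were higher with a trend in gene length removed, without W replicate 2 or without W replicate 3. The lower ones included Trim71 (−0.25), itself a repressor of mRNAs, and Lin28b (−0.64), which blocks let-7 maturation and lies in a stretch of chromosome 10 described below. Lin28a fell from 481, 506 and 515 CPM to 444, 447 and 436 CPM (−0.18, adjusted p 0.0111, edgeR), with adjusted p of 0.0542 without W replicate 2 and 0.0623 without W replicate 3.

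In Experiment 2, where 28.8% of genes were called between the libraries labelled Ago2KO_empty and T6B_MUT (16.4% higher, 12.4% lower), Ago1 (0.47) and Tnrc6a (0.68) were also called higher. In T6B_WT against T6B_MUT (16.0% called, 9.29% higher, 6.69% lower), they were higher by 0.77 and 0.78. Tnrc6b went the other way in the libraries labelled Ago2KO_empty, at −1.07. There it stood at 108, 145 and 75.4 CPM, against 227, 245 and 217 CPM in T6B_MUT, whose plasmid encodes a peptide of this same gene. Whether reads from the plasmid enter that count was not tested. Genes that remove poly(A) tails and caps moved little: 2 of 31 rose, Cnot6l (0.52), a deadenylase subunit, and Btg1 (0.36), and 4 fell. AU018091, listed here with primary microRNA transcripts and host genes, rose from 65.0, 61.3 and 57.9 CPM to 86.2, 92.5 and 86.5 CPM (0.52, SE 0.06, adjusted p 2.15e-05, edgeR). Whether AU018091 is part of the primary transcript of the miR-290 cluster was not tested. Mature microRNAs were not measured here.

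**Figure D1:**
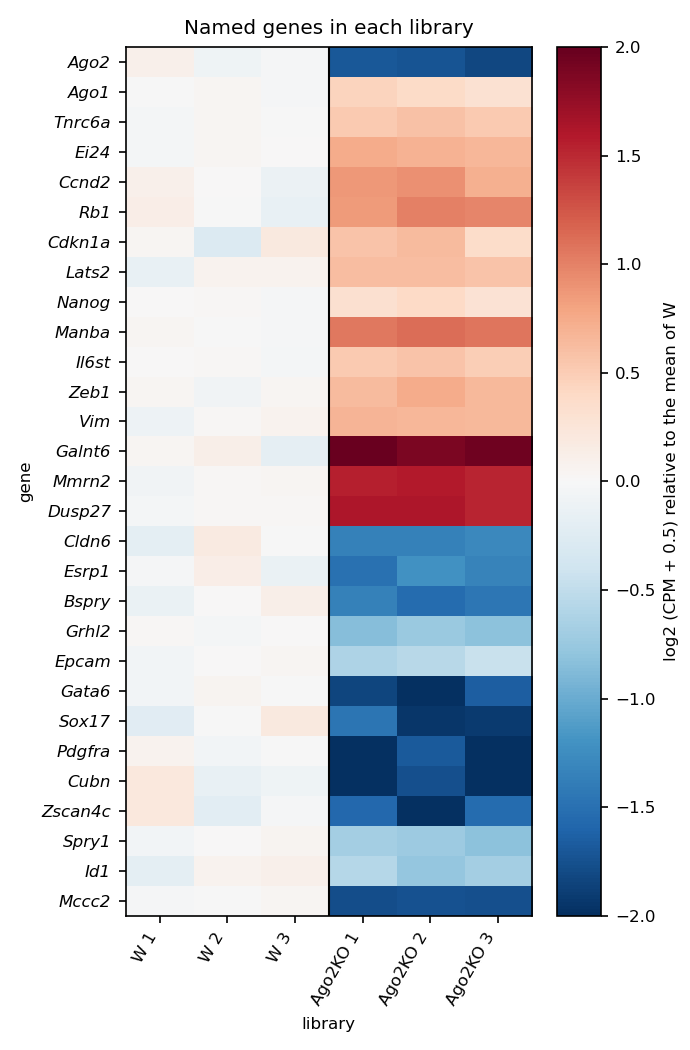
Heat map of log2 (CPM + 0.5) relative to the mean of W for 29 named genes (rows) in each of the 6 libraries (columns). The 3 Ago2KO columns are of one colour in each row, red for genes such as Galnt6 and Rb1 that were higher and blue for Ago2, Gata6 or Mccc2 that were lower; the colour scale ends at −2 and 2.

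Published targets of miR-290 and miR-302 both rose and fell more often than genes at large. Of 16 tested, 8 were higher (50%, against 13.7% of protein-coding genes) and 4 lower (25%, against 9.73%), with a median log2 fold change of 0.27. Among cell-cycle brakes, Cdkn1a, the p21 inhibitor of cyclin-dependent kinases, had 5.95, 4.70 and 6.67 CPM in W and 8.78, 9.21 and 7.56 CPM in Ago2KO (0.55, SE 0.12, adjusted p 0.00562, edgeR). Rbl2, a retinoblastoma-like pocket protein, rose by 0.49 and Lats2, a Hippo pathway kinase, by 0.63. Lats2 had 8.82, 10.3 and 10.3 CPM in W against 15.3, 15.4 and 14.9 CPM in Ago2KO, so the groups were well apart. The D-type cyclin gene Ccnd2 rose by 0.85 (SE 0.08), Ei24, a p53-induced gene of autophagy, by 0.71 (SE 0.05), Mbd2, a reader of methylated DNA, by 0.36, and Ccnd1 by 0.36. Tgfbr2, a receptor of TGF-beta, rose by 0.58 at 1.09 to 2.08 CPM (adjusted p 0.0302, edgeR). That call was lost in 6 alternatives, DESeq2 among them (adjusted p 0.0542), and the adjusted p reached 0.150 without Ago2KO replicate 1.

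The 4 targets that fell encode secreted or receptor proteins of lineage signalling. Lefty1 (−0.83) and Lefty2 (−0.72) are inhibitors of Nodal and near-identical neighbours, so their separate counts are uncertain. Dkk1, a Wnt antagonist, fell from 1.43, 1.23 and 1.43 CPM to 0.257, 0.297 and 0.332 CPM (−2.19, SE 0.25), and Pdgfra, which marks primitive endoderm, fell by 2.13 on the log2 scale. In T6B_WT 10 of the 16 were called higher, with a median of 0.48. In the libraries labelled Ago2KO_empty 7 were higher and 4 lower (median 0.20). The list was drawn from the literature with earlier results of these data known.

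The sites themselves are shown for 6 published targets with a perfect 8mer match, because the miR-290 and miR-302 seed can pair there. Sites were not printed for every chromosome, so these 6 need not be all published targets with an 8mer. The 8mer is AGCACTTA and the 7mer-m8 is AGCACTT, both searched on the sense strand of the longest annotated 3′ UTR (GENCODE M21, GRCm38). The first 6 bases of the 7mer-m8 site for miR-17, GCACTTT, are also within AGCACTT, so sites of both families can overlap. An 8mer was present in 3.34% of 14331 genes with a 3′ UTR. A match is a description of letters, not evidence of binding. The site is in capitals within 24 bases, 5′ to 3′ on the strand of the gene.
Cdkn1a: accgtgggtgtcaaAGCACTTAgt
Rbl2: gtatttttcaataaAGCACTTAta
Lats2: tacagtatggaaagAGCACTTAtt
Tgfbr2: atatcaaaacctaaAGCACTTAtt
Lefty1: tgcactgtatgcgaAGCACTTAca
Lefty2: catcacccagtttaAGCACTTAca
These lie in 3′ UTRs at chr17:29100486-29100509 (plus strand) for Cdkn1a, chr8:91123816-91123839 (plus) for Rbl2, chr14:57691084-57691107 (minus) for Lats2, chr9:116087769-116087792 (minus) for Tgfbr2, chr1:180938199-180938222 (plus) for Lefty1 and chr1:180897903-180897926 (plus) for Lefty2. The first 4 genes rose and the Lefty genes fell, although all 6 hold the same 8 letters.

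By the same search, the largest increases among well-expressed genes with an 8mer were those of Elf4, an ETS transcription factor, Crebl2, Atp7a, the copper transporter, Klhl28 and Lpin1, a phosphatidate phosphatase. Their sites are printed as the counterpart to the published ones.
Elf4: aggttgtgaggcaaAGCACTTAtc
Crebl2: gaaggtccttgcgcAGCACTTAga
Atp7a: acgtgcactgacacAGCACTTAcg
Klhl28: gtctcttctaatctAGCACTTAac
Lpin1: agtgtggactcagcAGCACTTAcg
Vim: atagaaagaagctcAGCACTTAac
Elf4 had 2.87, 2.60 and 2.81 CPM in W and 5.53, 6.11 and 5.18 CPM in Ago2KO, with no overlap (log2 fold change 1.01, SE 0.12). Crebl2 and Atp7a rose by 0.81 each, and Klhl28 and Lpin1 by 0.71 each. Vim, the intermediate filament vimentin of mesenchymal cells, rose from 214, 234 and 242 CPM to 369, 365 and 361 CPM (0.67, SE 0.05). All of these, Vim included, were also called higher in the libraries labelled Ago2KO_empty.

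Across the transcriptome the genes with a site were shifted upward by a small amount. Of 479 tested genes with an 8mer for AAGUGCU, 26.7% rose and 5.85% fell, while of 11916 genes without a 7mer-m8 12.1% rose and 10.5% fell. The medians were 0.08 and −0.00 on the log2 scale. For the miR-17 seed AAAGUGC, 32.4% of 608 genes rose, 4.93% fell and the median was 0.15. Among genes with an 8mer for AAAGUGC and no 7mer-m8 for AAGUGCU, 31.1% of 225 rose, and among those with an 8mer for AAGUGCU and no 7mer-m8 for AAAGUGC, 23.4% of 337. Genes with a 7mer-m8 for neither rose in 11.3% of 11045 cases.

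Genes with sites have longer 3′ UTRs, with a median of 2846 bases for the AAGUGCU 8mer against 934.5 bases without a 7mer-m8. Genes with long 3′ UTRs rose more often as a class. Long 3′ UTRs that lack a site for every seed searched were not looked at apart. From the shortest to the longest of 5 equal groups of 3′ UTRs, the share of genes that rose went from 7.56% to 21.1% and the median from −0.04 to 0.07. Within the longest 25% of 3′ UTRs, 28.0% of genes with an 8mer for AAGUGCU and 18.5% of genes without a 7mer-m8 rose, with medians of 0.08 and 0.05. For AAAGUGC the same shares were 33.1% and 17.8%, with medians of 0.15 and 0.05. Lengths still differed within this longest 25%. For AAGUGCU the median 3′ UTR there was 3878 bases with an 8mer and 3115 bases without a 7mer-m8. Other seeds varied. The shares were 25.9% and 19.4% for miR-21 and 25.4% and 19.6% for miR-142, and they were closer for miR-206, at 21.0% and 19.8%. For let-7, 53 of 279 genes with an 8mer and 573 of 2821 without a 7mer-m8 rose.

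The shift was then measured in each library as the median of 8mer genes minus that of genes without a site, relative to the mean of the 6 libraries. For AAGUGCU it was 0.0022, −0.059 and −0.072 in W and 0.0076, 0.083 and 0.045 in Ago2KO, a difference of 0.088 (two-sided exact permutation p 0.1, the smallest that 3 against 3 libraries allow). W replicate 1 lay next to Ago2KO replicate 1, so the groups were barely apart. For AAAGUGC the values were −0.032, −0.079 and −0.098 in W and 0.042, 0.097 and 0.058 in Ago2KO (exact permutation p 0.1), with a clear gap between the groups. For AAUACUG, the seed of miR-200, and for the seed of miR-21 the groups overlapped (exact permutation p 0.2 for each). Groups that did not overlap were also seen for other seeds. For let-7 the values were −0.0089, −0.015 and −0.033 in W and 0.0079, 0.038 and 0.0066 in Ago2KO (exact permutation p 0.1), and for miR-9 and miR-142, named with neurons and blood, the groups did not overlap either. Within the longest 25% of 3′ UTRs the difference between Ago2KO and W was 0.093 for AAAGUGC, 0.042 for AAGUGCU and 0.029 for miR-142 (exact permutation p 0.1 for each). There it had the opposite sign for let-7 (−0.021, exact permutation p 0.1) and for miR-206 (−0.018, exact permutation p 0.1), and the miR-9 groups overlapped (0.0072, exact permutation p 0.3). The family of 15 seeds computed in this way gave no value past 0.05, which the design cannot reach.

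**Figure D2:**
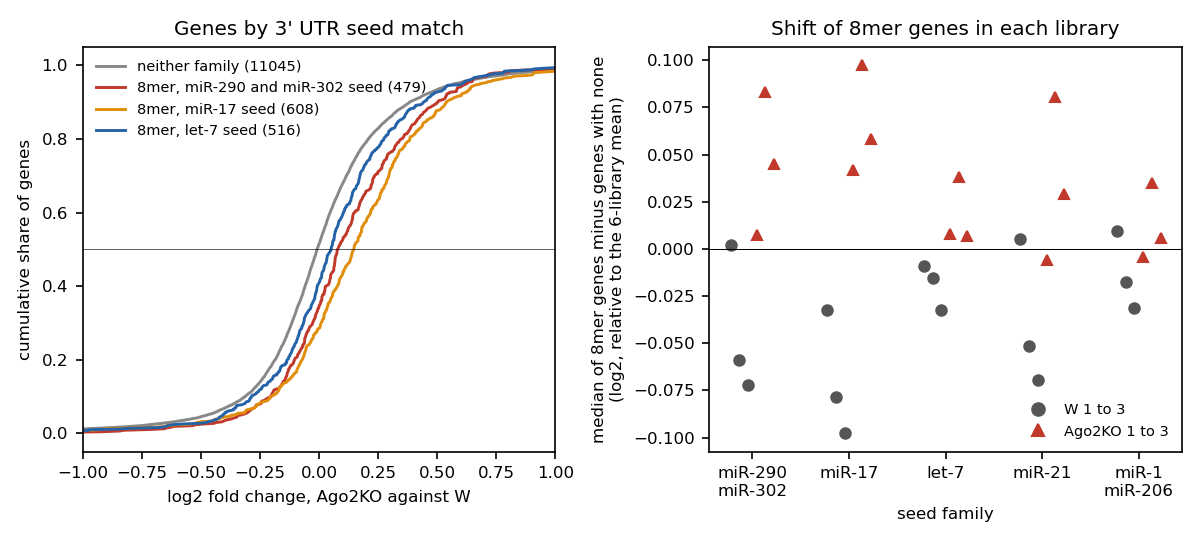
Left, cumulative share of genes (y axis) by log2 fold change of Ago2KO against W (x axis) for genes with an 8mer for the miR-290 and miR-302, miR-17 or let-7 seed and for genes with neither of the first 2 seeds. Right, the shift of 8mer genes in each library (log2), with W as circles and Ago2KO as triangles: miR-17 shows a wide gap between the groups, let-7 a narrow one, and miR-290 and miR-302 almost none between W 1 and Ago2KO 1.

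The machinery of the G1 to S transition changed at several points. Rb1, the retinoblastoma protein that restrains E2F, rose from 11.3, 10.2 and 9.19 CPM to 18.9, 21.1 and 20.6 CPM (0.98 on the log2 scale, SE 0.09; edgeR adjusted p 2.62e-06). The activating E2F genes E2f2 (−0.53) and E2f3 (−0.42) and their dimer partner Tfdp1 (−0.33) fell. E2f5, a repressive E2F, rose by 0.32. Cdkn1c, a p57 inhibitor encoded by an imprinted gene, went against the other inhibitors and fell by 0.72. Over the 31 genes of the list, 9 were higher and 7 lower with a median of 0.00. All of Rb1, Rbl2, Cdkn1a, Ccnd2 and E2f5 were also called higher, and E2f2, E2f3 and Tfdp1 lower, in both T6B_WT and the libraries labelled Ago2KO_empty. Of 30 genes of replication and mitosis, 6 were lower (20%, against 9.73% of protein-coding genes) and 1 higher. The lower ones included Cdk1 (−0.57), which lies in the same stretch of chromosome 10, Birc5 (−0.30), which encodes survivin, and Top2a (−0.27). With a trend in gene length removed, 10 were lower. This list was not set against genes of like abundance. Of all tested genes, 14.7% fell at a mean log2 CPM of 6 to 8 and 21.1% at 8 or more.

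Targets of p53 were more often higher than protein-coding genes at large (36.7% against 13.7%). Of 30, 11 were higher and 2 lower, and 25 had a positive log2 fold change (median 0.20). Ccng1, a cyclin G that feeds back on p53, had 286, 262 and 261 CPM in W and 429, 477 and 467 CPM in Ago2KO (0.76, SE 0.05, adjusted p 2.78e-07, edgeR). Eda2r, which encodes a member of the TNF receptor family, rose by 0.64 and Trp53inp1, which acts in autophagy and cell death, by 0.63. Neither overlapped between groups. Pmaip1, which encodes the killer protein NOXA, fell by 0.66 from 61.4, 57.8 and 57.9 CPM to 36.9, 36.6 and 38.8 CPM. The list had 15 higher and 1 lower in the libraries labelled Ago2KO_empty and 14 higher in T6B_WT. Of 28 apoptosis genes 4 rose, among them Apaf1 of the apoptosome (0.44), and 8 fell (5 without W replicate 2).

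Naive pluripotency genes were shifted upward. Of 24 tested, 10 were higher and 0 lower by edgeR, DESeq2 gave 10 and 0, and 1 was lower at an unadjusted p under 0.05. The median was 0.17, and 17 were positive. Manba, a lysosomal mannosidase used as a naive marker, rose from 111, 108 and 107 CPM to 226, 236 and 229 CPM (1.08, SE 0.05, adjusted p 2.13e-09, edgeR). The receptors of the LIF pathway, Il6st (gp130; 0.53) and Lifr (0.42), rose as well, with Spp1 (0.59), Jam2 (0.54), Fbxo15 (0.43) and Prdm14 (0.38), a repressor of primed genes. In the libraries labelled Ago2KO_empty 9 of 24 were higher and 3 lower.

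The core factors moved little. Nanog rose from 342, 343 and 333 CPM to 422, 449 and 415 CPM (0.34, SE 0.05, adjusted p 0.000154, edgeR), and Sall1 by 0.30. Pou5f1 had 1160.0, 1237 and 1322 CPM in W and 1175, 1072 and 1159.8 CPM in Ago2KO, and the groups overlapped (−0.13, adjusted p 0.177, edgeR). Sox2 (335 ± 24.0 and 378 ± 19.9 CPM, SD, n = 3) and Zfp42 (625 ± 10.2 and 635 ± 36.9 CPM) also overlapped. Esrrb lay higher in all 3 Ago2KO libraries by 0.16 and was not called (adjusted p 0.0612, edgeR). It was called with genes above 1 CPM alone (adjusted p 0.0464) and without Ago2KO replicate 3 (adjusted p 0.0341, both edgeR). Of 19 core genes, 4 rose and 5 fell (3 without W replicate 2), and those that fell included Epcam (−0.54) and Cdh1 (−0.39), both cell adhesion molecules.

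Genes of the formative and primed epiblast, the state that follows the naive one, were more often lower. Of 25, 9 fell and 5 rose, with a median of −0.20. Those that fell most were Cldn6 (−1.42), a tight junction protein, Pou3f1 (−0.93), Grhl2 (−0.82), Krt18 (−0.68) and Sox11 (−0.63). Pou3f1, a POU factor of the primed state, had 8.66, 10.8 and 12.2 CPM in W and 6.38, 3.86 and 6.09 CPM in Ago2KO (adjusted p 0.0233, edgeR), with adjusted p of 0.0739 and 0.0792 without W replicate 2 and without W replicate 3. Otx2 fell by 0.33. In contrast, Zic2 (0.86) and Zic5 (0.69), zinc finger factors of the epiblast, rose. In the libraries labelled Ago2KO_empty the list was even, with 6 higher and 6 lower.

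Genes of the primitive endoderm fell by large factors. Primitive endoderm is the extraembryonic layer beside the epiblast, and single cells of this kind can arise in stem cell cultures. Of 29 tested genes, 14 were lower and 2 higher, with a median log2 fold change of −0.46. Gata6, the factor that starts the fate, had 6.36, 6.92 and 6.63 CPM in W and 1.50, 1.29 and 1.78 CPM in Ago2KO (−2.10, SE 0.15, adjusted p 2.78e-07, edgeR). Sox17 fell from 3.33, 3.92 and 4.62 CPM to 1.11, 0.660 and 0.684 CPM (−2.25, SE 0.20). Pdgfra, the receptor on these cells, fell from 11.9, 11.0 and 11.3 CPM to 2.25, 3.24 and 2.46 CPM (−2.13, SE 0.13). Each W library stood at least 3-fold above each Ago2KO library for Gata6 and Pdgfra.

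Cubn (−2.20) and Dab2 (−2.19), which serve uptake in visceral endoderm, fell as far. Foxa2 fell by 2.56, from 0.764, 0.851 and 0.790 CPM to 0.107, 0.198 and 0.117 CPM, and Srgn, a proteoglycan encoded in the stretch of chromosome 10 described below, had a log2 fold change of −2.77. Gata4 fell by 1.21. Fst (0.56), an activin antagonist, and Nid1 (0.46), a basement membrane linker, went up. In bulk RNA, fewer cells of a type and less RNA of these genes per cell cannot be told apart. Gata6, Sox17, Pdgfra, Cubn and Dab2 overlap other annotated genes, and Gata4, Foxa2 and Srgn do not.

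The basement membrane collagens that primitive endoderm secretes fell at much higher abundance. Col4a1 had 150.5, 158 and 166 CPM in W and 75.1, 63.6 and 70.9 CPM in Ago2KO (−1.18, SE 0.07, adjusted p 1.18e-07, edgeR). Col4a2, its head-to-head neighbour, fell from 41.7, 43.5 and 46.5 CPM to 16.9, 14.1 and 17.4 CPM (−1.44). Each group was tight and far from the other. The prolyl hydroxylase gene P4ha2 (−0.86) and the laminin genes Lama1 (−0.52) and Lamb1 (−0.46) also fell. The list as a whole did not: of 33, 6 were lower and 8 higher (median 0.02), with Nid1 among the higher ones. The 6 defining primitive endoderm markers, all lower, summed to 36.0 to 38.7 CPM in W and to 9.79 to 11.4 CPM in Ago2KO.

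The decrease was smaller in Experiment 2. The same 6 markers summed to 24.9 to 25.7 CPM in T6B_MUT, 16.1 to 22.7 CPM in the libraries labelled Ago2KO_empty and 20.4 to 23.7 CPM in T6B_WT. A test of the difference between the 2 changes, (Ago2KO minus W) minus (Ago2KO_empty minus T6B_MUT), called 372 of 21870 genes (1.70%) and 11 of the 29 primitive endoderm genes. Gata6, for example, differed by −1.66 (SE 0.19, adjusted p 7.17e-05) and Pdgfra by −1.81 (SE 0.19, adjusted p 1.27e-05, edgeR). In the direct comparison of the 2 edited lines of Experiment 1, in which 34.2% of genes were called, Gata6 was higher in Ago2KO than in Trim71KO by 2.18, Gata4 by 1.52 and Cubn by 1.55. Dab2 was not separated between them (0.18, adjusted p 0.391, edgeR). Gata6, Gata4 and Cubn thus stood further below W in Trim71KO than in Ago2KO, so their decrease was not particular to Ago2KO.

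**Figure D3:**
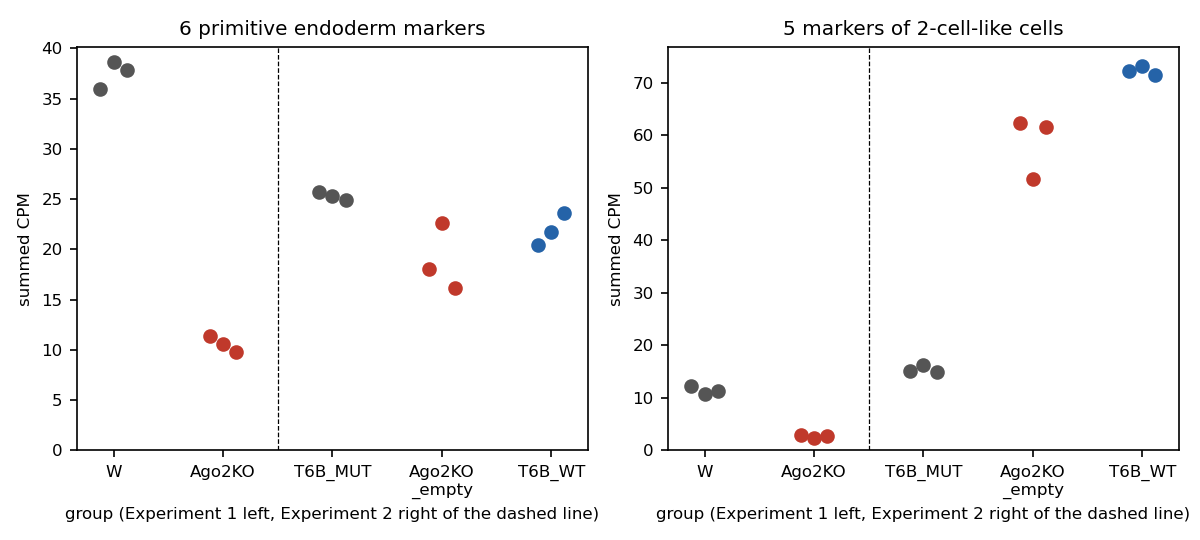
Summed CPM (y axis) of 6 primitive endoderm markers (left panel) and 5 markers of 2-cell-like cells (right panel) in each library, by group, with Experiment 1 left and Experiment 2 right of the dashed line. In Experiment 1 both sums are lower in Ago2KO than in W, and in Experiment 2 the 2-cell-like sum is higher in the libraries labelled Ago2KO_empty (51.7 to 62.3 CPM) than in T6B_MUT (14.9 to 16.3 CPM).

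Genes of 2-cell-like cells, a rare state in stem cell cultures that resembles the embryo when its own genome starts to be read, went in opposite directions in the 2 experiments. In Ago2KO 12 of 19 fell and 1 rose, with a median of −1.61. Zscan4c had 4.57, 3.30 and 3.83 CPM in W and 0.985, 0.495 and 1.02 CPM in Ago2KO (−2.16, SE 0.20, adjusted p 5.49e-06, edgeR), and Zscan4d 3.16, 3.74 and 2.85 against 0.728, 0.528 and 0.488 CPM. The groups were far apart. With genes above 1 CPM alone 8 of the list were lower. Pramel6 was the exception that rose (1.29), at 0.125 to 0.547 CPM, and 7 of the alternatives lost its call.

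In the libraries labelled Ago2KO_empty 18 of 19 rose against T6B_MUT (median 1.85), and in T6B_WT 16 rose (median 2.19). Zscan4c had 5.75, 5.95 and 5.44 CPM in T6B_MUT and 25.7, 27.7 and 26.2 CPM in T6B_WT, and in the libraries labelled Ago2KO_empty it was higher by 1.92. The test of the difference called 20 of 24 genes, 12 of them with called changes of opposite sign. Copies of Zscan4 and of Usp17l are near-identical, so the count of genes overstates the number of independent measurements. Cells of Experiment 1 were not transfected with a plasmid and those of Experiment 2 were, so experiment and transfection cannot be told apart.

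Germline and meiosis genes fell more often than they rose, at 11 and 4 of 33 (median −0.28), and 7 fell without W replicate 1. Those lower were led by X-linked genes: Xlr4a (−1.60), Rhox5 (−1.37), a homeobox gene, Xlr3a (−1.34) and Tex13b (−1.04). Rhox5 had 7.06, 7.28 and 7.40 CPM in W and 2.61, 2.91 and 2.93 CPM in Ago2KO. Kit, the receptor of stem cell factor, rose from 49.3, 46.9 and 50.2 CPM to 94.6, 94.8 and 90.9 CPM (0.94, SE 0.05, adjusted p 2.84e-08, edgeR), and Sohlh2 by 0.57. Against Trim71KO, Rhox5 was lower in Ago2KO by 3.10 on the log2 scale and Tex13b by 3.39. In Experiment 2 the list leaned the other way. There 9 rose and 4 fell in the libraries labelled Ago2KO_empty (median 0.14), and 8 rose and 2 fell in T6B_WT (median 0.21). The test of the difference between the 2 changes called 7 of 31 germline and meiosis genes.

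Of neural genes 13 were expressed enough to be tested, and 5 rose and 0 fell (edgeR and DESeq2; 0 lower at an unadjusted p under 0.05), with a median of 0.32. Ncam1, a neural cell adhesion molecule, rose from 14.0, 12.9 and 13.6 CPM to 30.9, 30.9 and 31.8 CPM (1.21, SE 0.06, adjusted p 1.16e-08, edgeR), and Neurod1, a proneural factor, from 3.90, 3.30 and 3.47 to 7.13, 8.29 and 6.84 CPM (1.05). The defining factors were low: Sox1 and Pax6 summed to 8.04 to 10.2 CPM in W and 11.4 to 12.2 CPM in Ago2KO. Trophoblast (2 of 21 higher, 3 lower) and primitive streak genes (2 of 19 higher, 1 lower) were near the background, although Kdr, the VEGF receptor of early mesoderm, rose by 1.27 (3.84, 3.96 and 3.51 against 8.93, 9.81 and 8.63 CPM).

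Genes of epithelial junctions were often lower. Of 38 genes of junctions and keratins, 18 were lower and 3 higher, with a median of −0.22, and 12 were lower without Ago2KO replicate 2. Bspry, a regulator of calcium entry in epithelia, fell from 9.69, 10.7 and 11.6 CPM to 3.88, 3.34 and 3.61 CPM (−1.55, SE 0.12, adjusted p 1.00e-06, edgeR). Cldn6 fell from 11.3, 14.7 and 13.0 CPM to 4.78, 4.79 and 5.00 CPM. Esrp1, the splicing factor that sets epithelial exon choice, fell by 1.46, Lad1, an anchoring filament protein, by 1.21, Cldn7 by 1.12 and Grhl2, a master factor of epithelia, by 0.82. Keratins Krt8 (−0.62) and Krt18 (−0.68) fell together with Epcam and Cdh1, which encodes E-cadherin at 206, 196 and 197 CPM in W and 155, 158 and 144 CPM in Ago2KO. Zeb1, a repressor of epithelial genes, rose by 0.69 (17.7 to 19.2 against 29.4 to 31.4 CPM), with Vim. Of 21 genes of epithelial to mesenchymal transition 3 rose, these and Tpm1, and 1 fell, a share of 14.3% higher against 13.7% of protein-coding genes.

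In the libraries labelled Ago2KO_empty 16 of 38 epithelial genes fell and 3 rose (median −0.26), 15 of them among the 18 above. In T6B_WT 7 fell and 4 rose (median −0.07). Bspry (−1.60), Cldn6 (−1.40) and Lad1 (−1.43) changed there about as much as in Ago2KO, and Sfn, an epithelial 14-3-3 protein, changed more (−1.56 against −0.71 in Ago2KO). Cdh1 did not pass there (−0.11, adjusted p 0.547, edgeR).

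**Figure D4:**
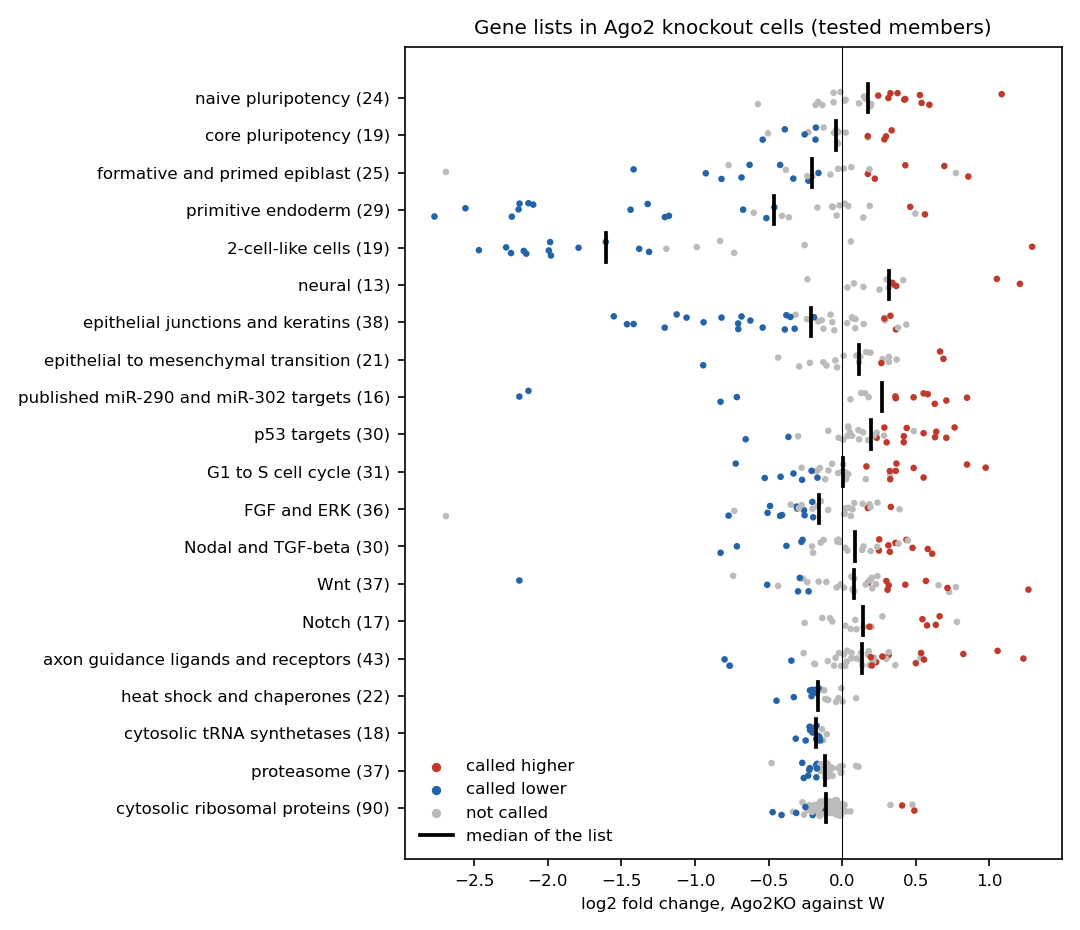
Log2 fold change of Ago2KO against W (x axis) for each tested member of 20 gene lists (rows, with the number tested), red where called higher, blue where called lower and grey where not called; the black bar is the median of the list. Primitive endoderm and 2-cell-like lists have the lowest medians, at −0.46 and −1.61, while naive pluripotency, p53 and miR-290 and miR-302 target lists have medians of 0.17, 0.20 and 0.27.

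Readouts of FGF and ERK signalling, which drives stem cells out of the naive state, were lower. Of 36 genes, 11 fell and 2 rose, with a median of −0.16. Spry1, a feedback inhibitor that ERK switches on, fell from 15.3, 16.0 and 16.5 CPM to 9.74, 9.48 and 8.81 CPM (−0.77, SE 0.08, adjusted p 1.92e-05, edgeR). Spry2 (−0.41), Dusp4 (−0.49) and Dusp6 (−0.26), all of them feedback genes, and Myc (−0.51) fell as well. Spry1, Spry2 and Dusp6 were also lower in T6B_WT and in the libraries labelled Ago2KO_empty, with log2 fold changes of −1.10 to −0.39. Dusp4 was lower in T6B_WT (−0.39) and not called in the libraries labelled Ago2KO_empty (−0.07, adjusted p 0.678, edgeR).

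The Nodal and TGF-beta list was mixed. The receptor gene Tgfbr1 (0.44) and the signal transducer genes Smad2 (0.36) and Smad3 (0.48) were higher. Nodal itself had 45.0, 50.5 and 50.3 CPM in W and 41.1, 37.5 and 41.5 CPM in Ago2KO (−0.28, adjusted p 0.00613, edgeR), and its targets Lefty1 and Lefty2 were lower. In total 9 of 30 rose and 5 fell, and 6 rose without Ago2KO replicate 1. Nodal lies in a stretch of chromosome 10 described below, and in the libraries labelled Ago2KO_empty it was higher by 0.36. Among BMP genes (3 of 21 higher, 3 lower), Id1, a direct target of BMP signalling, fell from 77.2, 92.7 and 95.1 CPM to 59.6, 51.7 and 54.8 CPM (−0.67). Id4 rose by 0.77, and Smad6 by 0.65 with a call that 7 alternatives lost, the replicate block among them (adjusted p 0.0521, edgeR).

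Wnt genes were mixed. Of 37, 8 were higher (5 without Ago2KO replicate 1) and 5 lower (3 without Ago2KO replicate 3). Notum, a secreted enzyme that inactivates Wnt proteins, rose from 12.5, 13.7 and 14.3 CPM to 35.9, 28.1 and 33.2 CPM (1.27, SE 0.10, adjusted p 1.83e-06, edgeR), and Sfrp1, a Wnt-binding antagonist, by 0.57. Axin2, a readout of the pathway, fell by 0.51 and Dkk1 by 2.19. In the Notch pathway 5 of 17 rose and 0 fell (DESeq2 4 and 0; 0 lower at an unadjusted p under 0.05). These were the receptors Notch1 (0.55), Notch3 (0.64) and Notch4 (0.66), the ligand Jag1 (0.58) and the effector Rbpj (0.18). Hhip and Boc, which bind Hedgehog, rose by 1.21 and 0.94, while the list (3 of 16 higher, 2 lower) was near the background. In the Hippo list (4 of 24 higher, 4 lower, and 2 higher without Ago2KO replicate 3) Lats2 rose and Amot fell by 1.00.

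Single genes with large increases belonged to no common list. Galnt6, an enzyme that starts mucin-type O-glycosylation, had 6.84, 7.19 and 5.80 CPM in W and 27.4, 25.7 and 26.8 CPM in Ago2KO, while of 24 genes of that pathway 4 rose and 2 fell. Mmrn2, an endothelial matrix protein, had 15.5, 16.6 and 16.6 CPM in W and 48.7, 49.8 and 47.3 CPM in Ago2KO (log2 fold change 1.58, SE 0.06, adjusted p 7.26e-10, edgeR). Dusp27, a catalytically inactive phosphatase of muscle, rose from 56.7, 59.4 and 59.3 CPM to 179, 180.2 and 168 CPM (1.59, SE 0.05, adjusted p 1.38e-10, edgeR). Its neighbour on chromosome 1, Gpa33, a surface antigen of gut epithelium, rose from 23.6, 25.0 and 23.9 CPM to 62.5, 58.3 and 56.6 CPM (1.29). In each of these the knockout libraries lay above 2 times the parental ones.

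The increases of Galnt6, Mmrn2, Kdr, Aass (1.50), the first enzyme of lysine breakdown, and Prmt8 (1.32), a membrane-bound arginine methyltransferase, were called in the libraries labelled Ago2KO_empty too, at log2 fold changes of 1.68 to 2.37. Those of Dusp27 and Gpa33 were smaller there, at 0.55 and 0.21, and the differences were called (1.06 and 1.10, adjusted p 3.15e-07 and 2.57e-07, edgeR). Slc5a1 (1.31), a sodium and glucose cotransporter, the zinc finger gene Zfp607b (1.28) and the noncoding C78283 (1.31) also rose. Galnt6 and Prmt8 overlap genes on the opposite strand and Slc5a1 genes on both, and Mmrn2, Kdr, Aass, Dusp27, Gpa33, Zfp607b and C78283 overlap none.

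Among the largest decreases, Mccc2, a subunit of the carboxylase that breaks down leucine, had 14.1, 14.3 and 14.8 CPM in W and 3.88, 3.96 and 3.89 CPM in Ago2KO. The other 24 genes of branched-chain amino acid breakdown were mostly level, with 2 rising and 2 falling besides Mccc2. Eif4g3, a translation initiation scaffold, fell by 1.29 from 15.3, 15.0 and 14.4 CPM to 5.87, 5.98 and 6.33 CPM. It overlaps other genes on both strands, and in the libraries labelled Ago2KO_empty it was not called (−0.34, adjusted p 0.171, edgeR). Ap1m2 (−1.21), the epithelial subunit of a clathrin adaptor, and Hopx (−1.01), an atypical homeobox protein, fell in Ago2KO and in the libraries labelled Ago2KO_empty.

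Genes of tRNA charging and of protein folding fell by small steps. Of 18 cytosolic tRNA synthetases, which load tRNAs with amino acids, 15 were lower and 0 higher by edgeR, with 14 and 0 by DESeq2 and 0 higher at an unadjusted p under 0.05. The median was −0.18, and 7 were lower without W replicate 2. Nars had 395, 388 and 384 CPM in W and 296, 316 and 326 CPM in Ago2KO (−0.32, SE 0.04, adjusted p 0.000179, edgeR), and Aars fell by 0.22. Of 22 chaperone genes, 10 were lower and 0 higher (DESeq2 10 and 0; 1 higher at an unadjusted p under 0.05; median −0.16), among them the mitochondrial co-chaperone Hspe1 (−0.33) and the chaperonin subunit Cct8 (−0.22). The heat shock factor Hsf2 (−0.45) lies in the chromosome 10 stretch.

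Proteasome subunits (10 of 37 lower, 0 higher by edgeR and DESeq2, and 0 higher at an unadjusted p under 0.05) had a median of −0.11, and 4 were lower without Ago2KO replicate 2. Ribosomal protein genes had a median of −0.11 as well, with 11 of 90 lower (12.2%, against 9.73% of protein-coding genes) and 2 higher. That lower count was 5 without Ago2KO replicate 1 and 21 with the replicate block, and it includes Rps12 (−0.47) in the chromosome 10 stretch. For the nuclear-encoded respiratory chain, 10 of 82 were lower and 1 higher (median −0.11), and 1 was lower without W replicate 3 and 19 with the replicate block. In serine synthesis Phgdh (−0.52) and Psat1 (−0.32) fell. In glycolysis Pkm (−0.24) and Ldha (−0.29) fell, at 2128, 2204 and 2254 against 1865, 1836 and 1860.5 CPM for Pkm, and of 23 genes 8 were lower and 4 higher. Ribosomal protein genes are abundant, at 44435 to 46626 CPM summed in W. Of the 664 tested genes at a mean log2 CPM of 8 or more, 21.1% fell, which is above the ribosomal share of 12.2%. None of the lists from tRNA synthetases to glycolysis was set against genes of like abundance.

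A few other groups were shifted upward. Lysosome and autophagy genes rose in 9 of 33 cases and fell in 4 (median 0.08), with Lamp2 (0.53) and the glycogen-degrading enzyme gene Gaa (0.37) among the higher, and 5 rose without W replicate 2. Of 30 genes of interferon response and RNA sensing 9 rose and 4 fell (median 0.18), and 0 fell without W replicate 3. Zc3hav1, an antiviral protein that destroys CpG-rich RNA, rose from 38.3, 37.2 and 37.8 CPM to 68.4, 67.9 and 69.7 CPM (0.86, SE 0.05, adjusted p 3.12e-08, edgeR), and Ifitm3 by 0.53. Axon guidance genes rose in 11 of 43 cases (25.6%, against 13.7% of protein-coding genes) and fell in 3 (median 0.14). Slit2 (1.23), a secreted repellent, and Sema3d (1.06) led them, both at 0.723 to 2.51 CPM. With a trend in gene length removed, 8 axon guidance genes rose and 4 fell.

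Protocadherins, neuronal adhesion proteins, rose in 21 of 41 cases and fell in 0 (edgeR and DESeq2; 1 lower at an unadjusted p under 0.05). All 21 that rose are in the gamma cluster, for example Pcdhgc3 (0.39; 29.8, 34.9 and 35.8 against 46.7, 42.7 and 42.4 CPM). Genes of that cluster share their last exons and so their counts, and the 21 calls are not 21 separate measurements. Published let-7 targets were lower in 8 of 20 cases and higher in 4 (median −0.08), with 5 lower without W replicate 2. Hmga2 (−0.46), a chromatin protein of proliferating progenitors, Myc and Lin28b were among the lower.

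By class of transcript, protein-coding genes made up 1993 of the higher and 1420 of the lower genes. Processed pseudogenes, copies made by reverse transcription that can share reads with their parent genes, rose in 1.30% and fell in 4.76% of 3610 cases. Long intergenic noncoding RNAs rose in 7.32% and fell in 2.50% of 519. The balance also moved with abundance: genes at a mean log2 CPM of 8 or more rose in 4.67% and fell in 21.1% of 664 cases, while at 4 to 6 the shares were 16.3% and 10.2% of 5064. It moved with the deposited gene length too, with 1.98% rising in the shortest of 5 equal groups and 20.5% in the longest. With a trend in length removed from each library, 1958 genes were higher and 2059 lower.

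A block of neighbouring genes on chromosome 10 was lower in Ago2KO. Between 20 and 70 Mb, 110 of 296 tested genes fell (37.2%, against 7.78% of all genes) and 2 rose, 247 had a negative log2 fold change and the median was −0.27. The median of this block relative to the mean of W was 0.03, −0.02 and −0.01 in W and −0.23, −0.22 and −0.22 in Ago2KO (two-sided exact permutation p 0.1, the smallest possible). The 5 windows of 10 Mb in the block had medians between −0.29 and −0.24, and the windows on either side had −0.00 and −0.03. They took ranks 2 to 6 from the lowest among 260 windows of the genome. In the libraries labelled Ago2KO_empty the same block stood at −0.04, −0.02 and −0.05, near T6B_MUT, and 33 of 291 genes there were lower. The block was lower than in Trim71KO too, with a median of −0.16. Trim71KO itself stood below W there, with a median of −0.11, so a part of the decrease was seen in both edited lines. Outside it 1540 genes were lower in Ago2KO. Copy number was not measured here, and its part in the result was not tested.

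Lin28b, Cdk1, Nodal, Srgn, Hsf2 and Rps12 lie in this block, and their decreases are to be read beside its median of −0.27. Srgn (−2.77), Lin28b (−0.64) and Cdk1 (−0.57) lay below that median and Nodal (−0.28) beside it. On the Y chromosome 8 of 20 genes rose, among them Uba1y (1.38), a ubiquitin-activating enzyme, from 7.17, 7.21 and 7.51 CPM to between 18.1 and 19.7 CPM. The median of Y genes relative to W was 0.17, 0.34 and 0.22 in the 3 Ago2KO libraries, and relative to T6B_MUT it was 0.42, 0.27 and 0.30 in the libraries labelled Ago2KO_empty. Uba1y was not called between Ago2KO and Trim71KO (0.15, adjusted p 0.103, edgeR).

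**Figure D5:**
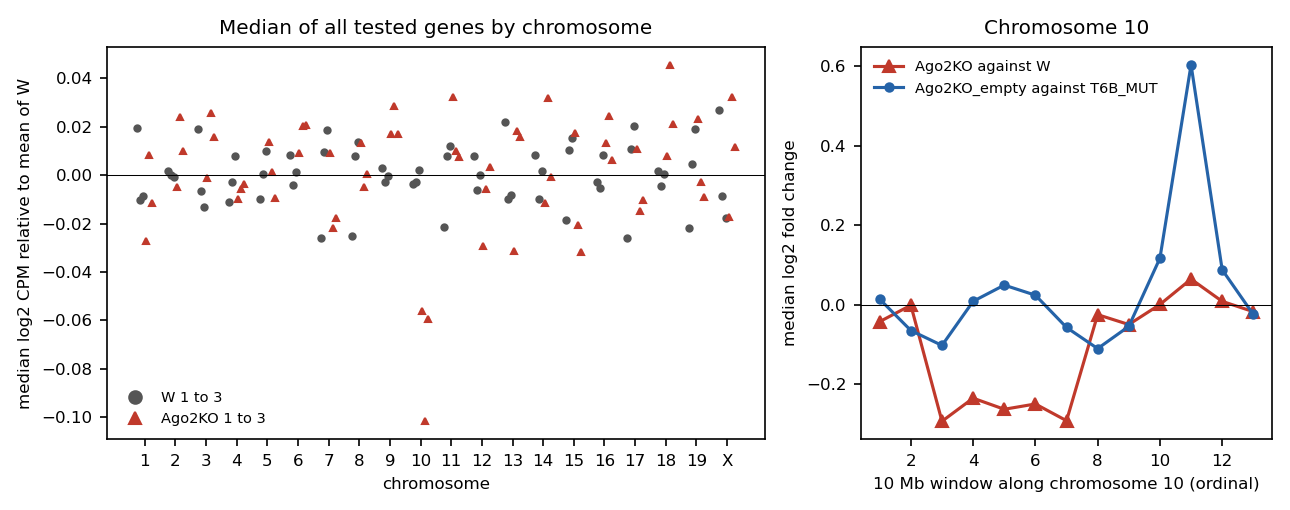
Left, median of log2 CPM relative to the mean of W (y axis) over all tested genes of each chromosome (x axis, autosomes and X) in each library; chromosome 10 is the one at which all 3 Ago2KO libraries (triangles) lie below −0.05. Right, median log2 fold change by 10 Mb window along chromosome 10 for Ago2KO against W and for the libraries labelled Ago2KO_empty against T6B_MUT: windows 3 to 7 are low in the former only, and window 11, of 28 genes, is high in the latter.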

How the data were processed

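The deposited values are counts of reads per gene for each library, with RPKM values (scaled by gene length and library total) and gene length beside them, per the file headers. The authors deposited 1 table of 22512 genes; RPKM values were not tested. The kit was TruSeq stranded total RNA, per the labels' protocols. The submitters' processing notes name bcl2fastq 2.17, STAR 2.7.3a and GRCm38 (mm10). The counting tool, the annotation and the use of strand are not given in the sources used here. Gene IDs matched GENCODE M21 for 22480 genes.

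Counts of the 9 Experiment 1 libraries were fitted together with edgeR 4.0.16 in R 4.3.3 (TMM factors, filterByExpr at a minimum count of 10, robust quasi-likelihood test, Benjamini-Hochberg threshold 0.05), so the groups share 1 estimate of the spread. Experiment 2 was fitted separately. The test of the difference between the changes in both experiments was added after seeing the data. DESeq2 1.42.0 was an alternative. Replicates are described as biological, and p-values measure the spread between these libraries. Single values were compared by two-sided exact permutation tests. Heat map values used a pseudocount of 0.5. Sequences are from RefSeq and GENCODE M21 on GRCm38.

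The members, gene lists and tests were chosen with earlier results of these data known. Genes were named by rule: the 15 largest increases and decreases among called genes that carry a symbol, average 2 or more in log2 CPM and have CPM ranges that do not overlap; up to 5 called members per direction in each of 58 lists and any member of lists of at most 12; fixed genes of microRNA silencing and pluripotency and published miR-290 and miR-302 targets; and the 10 largest increases among called genes with an 8mer. Some genes that the rule names are not reported here. On simulated counts for Ago2KO against W, the fit recovered 100% of genes changed by a log2 fold change of 1 and 85% at 0.5, with 13 false calls among 20932 genes. Changes were planted only in genes above a floor of expected counts, so recovery of genes at low CPM was not tested. Simulated libraries were drawn independently, without deviations shared between libraries, so the false calls may be too few for the real ones.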

Additional observations from a re-analysis of the deposited data

Results flagged for a closer look

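For 25 named genes the change in Ago2KO against W differed from the change in the libraries labelled Ago2KO_empty against T6B_MUT by the edgeR test of the difference, which called 1.70% of all genes. The values below are the first log2 fold change minus the second. Experiment, transfection and control plasmid cannot be told apart in them, and Ago2 itself was not separated in the second comparison.

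Primitive endoderm genes differed downward: Gata6 by −1.66, Sox17 by −1.47, Pdgfra by −1.81, Cubn by −1.57, Dab2 by −1.16, Srgn by −1.76 and Foxa2 by −2.09. The basement membrane genes Col4a1 (−1.06), Col4a2 (−1.38), P4ha2 (−0.70), Lama1 (−0.55) and Lamb1 (−0.37) did so too.

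Genes of 2-cell-like cells differed by the widest margin of the 25, with Zscan4a at −4.01, Zscan4b at −4.09, Zscan4c at −4.06 and Zscan4d at −4.47. The signalling and epiblast genes Dkk1 (−1.43), Nodal (−0.61) and Otx2 (−0.54), the germline gene Tex13b (−1.49) and the cell-cycle inhibitor gene Cdkn1c (−0.76) were lower in the first comparison relative to the second. Dusp27 (1.06), Gpa33 (1.10), Sfn (0.87) and Tnrc6b (1.50) were higher, and T6B_MUT carries a peptide of TNRC6B.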

How the results depend on the processing

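The counts of 2161 higher and 1650 lower genes were compared over other settings. Requiring a change of 1 or more on the log2 scale left 192 higher and 148 lower. Leaving out 1 library at a time gave 1552 to 2049 higher and 1014 to 1627 lower genes, the lowest lower counts being 1014 without W replicate 2 and 1016 without W replicate 3. DESeq2 gave 2052 and 1683. Removing a length trend gave 1958 and 2059. Replicate numbers did not pair the libraries: same-numbered W and Ago2KO libraries had correlations of −0.65, −0.27 and 0.09. Pairs of unlike number ran from −0.52 (W 3 with Ago2KO 2) to 0.56 (W 1 with Ago2KO 2), so some deviations from the group means were shared across the groups. With the replicate block 2130 genes were higher and 1701 lower, 3547 of the 3811 calls were kept, and the calls of Pramel6 (adjusted p 0.0515, edgeR) and Smad6 (0.0521) were lost. Over 160 named genes and 13 settings, 2043 of 2076 values kept direction and side of the threshold, 30 lost the call, 2 gained one and 1 changed sign: Zfp42, not called, was 0.02, and −0.027 (without Ago2KO replicate 3) to 0.049 (without Ago2KO replicate 1) with 1 library left out. The median difference between genes with and without an AAGUGCU 8mer was 0.08, and between 0.063 and 0.12 over the settings. Ago2KO replicate 2 is the shallowest library, and changes of low genes there rest on fewer counts.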
